A study of Mus musculus with 4 samples.

Results

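The vacuolar proton ATPase (V-ATPase) was followed through 10 of its subunit genes, chosen by name from the gene annotation deposited with a mouse microarray series. The 10 genes were measured by 20 array rows, out of 20735 genes and 35411 rows in all, and each was found by its gene name, none through a synonym. They encode 9 kinds of subunit. A row is one probe set, built on 1 transcript sequence. The series holds 4 arrays of RNA labelled as that of CD4+CD62Lhi T cells from the spleens of FVB/N mice, hybridised with Cy3, with 1 array for each of 4 groups. The groups were miR-7 deficient cells labelled activated, wild-type cells labelled activated, miR-7 deficient naive cells and wild-type naive cells. The activated cells were described as held in vitro for 48 hours with antibodies to CD3 and CD28 plus IL-2, and the naive cells as isolated on immuno-magnetic beads. How miR-7 deficiency was produced, in which cells, and the age of the mice are not given in the sources used here; column names in the deposited tables abbreviate the genotype as KD. The labels call every sample representative of 3 biological replicates. With a single array for each group, no spread between replicates could be measured, and no difference below carries a test or a p-value.

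The V-ATPase is a rotary pump that spends ATP to move protons into lysosomes, endosomes, secretory granules and synaptic vesicles. Its cytosolic V1 sector binds and splits ATP, and its membrane V0 sector carries the protons. Several subunits exist as isoforms from separate genes: in mammals Atp6v0a1 (subunit a1) and Atp6v1g2 (subunit G2) are enriched in neurons, where the pump loads synaptic vesicles. The other 8 of the 10 chosen genes, the general isoforms, are expressed in most cells. In T cells the lysosomal pump also takes part in nutrient sensing by mTORC1.

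The microRNA that differs by genotype is shown for identification, since its seed is what pairs with target transcripts. Both mature mouse forms in RefSeq (GRCm38.p6) share 1 seed, bases 2 to 8, given in capitals.
miR-7a-5p: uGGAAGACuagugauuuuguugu
miR-7b-5p: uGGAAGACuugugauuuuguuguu
No target site was searched for in the subunit transcripts.

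Before the subunits, the arrays were set against cell type markers. Of 12 T cell genes, 2 and 3 were above the floor on the arrays labelled activated of miR-7 deficient and wild-type cells, against 10 and 8 on the naive arrays of the same genotypes. The floor of an array is the level below which 95% of its 666 rows of chemosensory receptor genes lay (for smell, taste, pheromones and trace amines). It was 606 and 721 intensity units on the arrays labelled activated of miR-7 deficient and wild-type cells, and 987 and 984 units on the naive arrays. Cd3e, which encodes CD3 epsilon, read 434 and 419 units on the arrays labelled activated, and 1219.8 and 1680.5 units on the naive arrays. The summed intensity of the T cell genes was 7850 and 6042 on the arrays labelled activated, and 31969 and 26829 on the naive arrays. Of 10 neuronal genes, 10 and 9 were above the floor on the arrays labelled activated and 0 and 0 on the naive arrays, with summed intensities of 80063 and 49128 against 2057 and 2293. Of 8 genes of oligodendrocytes and myelin, 8 and 8 were above the floor on the arrays labelled activated and 1 and 1 on the naive arrays. Astrocyte genes above the floor numbered 6 and 5 of 6 on the arrays labelled activated and 1 and 1 on the naive arrays. Without a floor, 5 of them were higher on the arrays labelled activated in both genotypes and 1, Aqp4, was lower. Aqp4 read 1316 and 1365 units on the arrays labelled activated and 2665 and 3458 units on the naive arrays. Microglia and macrophage genes above the floor numbered 6 and 3 of 8 against 0 and 0, and B cell genes 1 and 2 of 6 against 4 and 3. The arrays labelled activated therefore go against the label of T cells by their markers, and they are called by their label only. Across rows, the 2 arrays labelled activated had a Pearson correlation of 0.923 and the 2 naive arrays 0.900, while pairs across that divide ran from 0.723 to 0.750. The part of these other cell types in the subunit differences was not tested, and fewer cells of a type cannot be told apart from less RNA per cell.

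All 10 V-ATPase genes were higher on the array labelled activated than on the naive array in miR-7 deficient samples, and all 10 were higher in wild-type samples when measured values were used without a floor. With measured values the largest of the 10 differences were those of the neuronal isoforms Atp6v0a1 and Atp6v1g2 in both genotypes, taken against naive values below the floor. Below, a value under the floor was set to the floor, so that a difference with 1 side below it is a lower bound, written "at least". Where a gene had several rows, the one with the highest mean log2 intensity stood for it. Above the floor were 10, 9, 3 and 1 of the 10 genes on the arrays of miR-7 deficient cells labelled activated, wild-type cells labelled activated, miR-7 deficient naive cells and wild-type naive cells. Of all 20735 genes, 5340, 4603, 3051 and 2847 were above the floor on these arrays, so fewer genes of any kind passed on the naive arrays.

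**Figure D1:**
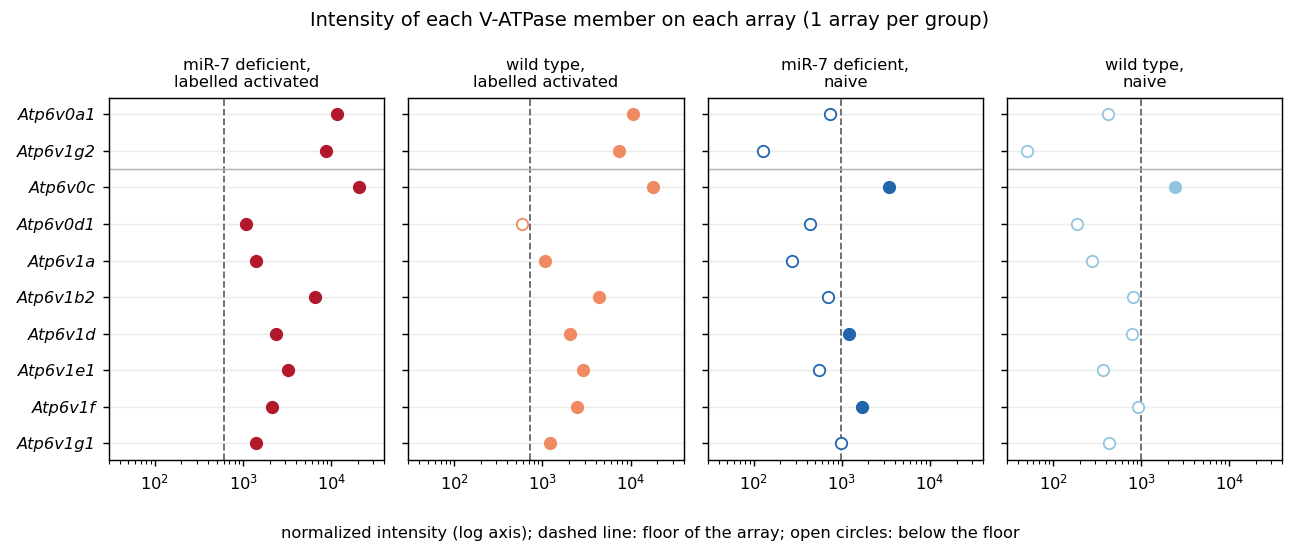
Intensity of each of the 10 V-ATPase genes on the 4 arrays, on a log axis in normalized intensity units, with each point 1 array and open points below the floor of their array. Atp6v0c is the gene above the floor on all 4 arrays, and Atp6v1g2 spans the widest range, between 51.2 and 8796 units.

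In the membrane sector, Atp6v0c encodes the proteolipid c subunit of the ring through which protons pass. Its single row read 20416 and 18144 units on the arrays labelled activated of miR-7 deficient and wild-type cells, and 3462 and 2443 units on their naive arrays. Its value was above the floor on all 4 arrays, and the arrays labelled activated lay above both naive arrays. The difference was 5.90-fold in miR-7 deficient samples and 7.43-fold in wild-type samples (log2 2.56 and 2.89). With each bound counted at its own size, 2.06% and 1.68% of genes above the floor differed by as much or more in that direction. A gene with a bound may differ by more than its bound. Atp6v0d1 encodes subunit d, which joins the V0 ring to the central stalk. It read 1066 and 588 units on the arrays labelled activated of miR-7 deficient and wild-type cells, and 431 and 188 units on the naive arrays, so that only the miR-7 deficient array labelled activated was above its floor. The miR-7 deficient difference was at least log2 0.11, and in wild-type samples both sides were below the floor, where the measured values differed by log2 1.65.

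Atp6v0a1 encodes subunit a1, the neuron-enriched form of the large membrane subunit a, found on synaptic vesicles. Its leading row, built on a visual cortex cDNA clone, read 11681 and 10625 units on the arrays labelled activated of miR-7 deficient and wild-type cells, against 743 and 419.9 units on the naive arrays. The naive arrays were below the floor. The difference was at least 11.8-fold in miR-7 deficient and at least 10.8-fold in wild-type samples (log2 3.57 and 3.43). Of all genes above the floor, 0.705% and 0.897% differed by as much or more, with bounds, its own included, counted at their size. A second row of the gene read 7227 and 5002 units on the arrays labelled activated and 459.9 and 309 units on the naive arrays.

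The other 3 rows of Atp6v0a1 were below the floor on every array. A row built on the isoform described as a1-II read 599 and 385 units on the arrays labelled activated and 151 and 171 units on the naive arrays. A row from activated spleen cDNA read 176 and 334 units on the arrays labelled activated, against 141 and 177 units on the naive arrays. A row from a mammary gland line ran the other way, with 30.2 and 46.3 units on the arrays labelled activated and 128 and 85.1 units on the naive arrays. The rows of this gene disagreed: the leading pair was far higher on the arrays labelled activated, and the mammary gland row ran the other way. With the mean of all 5 rows the floors gave no bound on the difference in either genotype. That does not show that the difference was absent.

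In the catalytic sector, Atp6v1a and Atp6v1b2 encode the A and B subunits that make up the head, the A subunit with the site that splits ATP. Atp6v1a read 1401 and 1073 units on the arrays labelled activated of miR-7 deficient and wild-type cells, and 276 and 277 units on the naive arrays. The differences were at least log2 0.51 and 0.12, and 2.35 and 1.95 with measured values. Its other row stayed below the floor, at 209 and 149.7 units on the arrays labelled activated and 80.1 and 43.7 units on the naive arrays. Atp6v1b2 read 6530.3 and 4347 units on the arrays labelled activated of miR-7 deficient and wild-type cells, and 694 and 813 units on the naive arrays. It was at least 6.62-fold higher in miR-7 deficient and at least 4.42-fold higher in wild-type samples. With bounds counted at their size, 1.82% and 4.06% of genes above the floor matched or passed these values. Its 2 other rows were below the floor on all arrays, at 498, 368, 68.4 and 186 units and at 204, 89.9, 79.3 and 134 units in the order miR-7 deficient labelled activated, wild type labelled activated, miR-7 deficient naive and wild type naive. The last of these rows was lower on the wild-type array labelled activated than on the naive one. With the mean of all rows the floors gave no bound on the difference of Atp6v1b2 in miR-7 deficient samples, which does not show that it was absent.

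Atp6v1d, Atp6v1e1, Atp6v1f and Atp6v1g1 encode the stalk subunits that turn with the rotor or hold the head in place. Atp6v1d, part of the rotor, read 2358 and 2071 units on the arrays labelled activated of miR-7 deficient and wild-type cells, and 1198 and 785 units on the naive arrays. It was 1.97-fold higher in miR-7 deficient samples, just under the 2-fold mark, and at least 2.10-fold higher in wild-type samples. Atp6v1e1, part of the outer stalk, read 3228 and 2846 units on the arrays labelled activated of the same genotypes and 550.1 and 365 units on the naive arrays. It was at least 3.27-fold higher in miR-7 deficient and at least 2.89-fold higher in wild-type samples. These genes showed the arrays labelled activated above the naive ones in both genotypes.

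Atp6v1f, a rotor subunit, read 2114 and 2439 units on the arrays labelled activated of miR-7 deficient and wild-type cells, and 1684 and 926 units on the naive arrays. The difference was 1.25-fold in miR-7 deficient samples and at least 2.48-fold in wild-type samples, and the gap between these sizes was not tested. Atp6v1g1 encodes the general form of the G subunit of the outer stalk. It read 1394 and 1208 units on the arrays labelled activated and 981 and 427 units on the naive arrays, with the miR-7 deficient naive value just below its floor of 987 units. Its differences were at least log2 0.50 and 0.30. A second row of it read 789.7 and 942 units on the arrays labelled activated, against 768 and 232 units on the naive arrays, so that in miR-7 deficient samples the 2 values of that row nearly coincide.

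Atp6v1g2 encodes the neuron-enriched form of the G subunit. It read 8796 and 7296 units on the arrays labelled activated of miR-7 deficient and wild-type cells, and 127 and 51.2 units on the naive arrays. The naive values were below the floor, and the difference was at least 8.91-fold in miR-7 deficient and at least 7.41-fold in wild-type samples. With measured values the log2 differences were 6.11 and 7.15, from naive values that lie below the floor. With the mean of all its rows, the difference was at least 1.73 and 1.59. A second row gave 7218 and 7103 units on the arrays labelled activated and 58.7 and 74.9 units on the naive arrays. A further row, described as a cDNA with an apparent retained intron, was below the floor on all arrays, at 550.5 and 501 units on the arrays labelled activated and 93.7 and 94.5 units on the naive arrays.

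**Figure D2:**
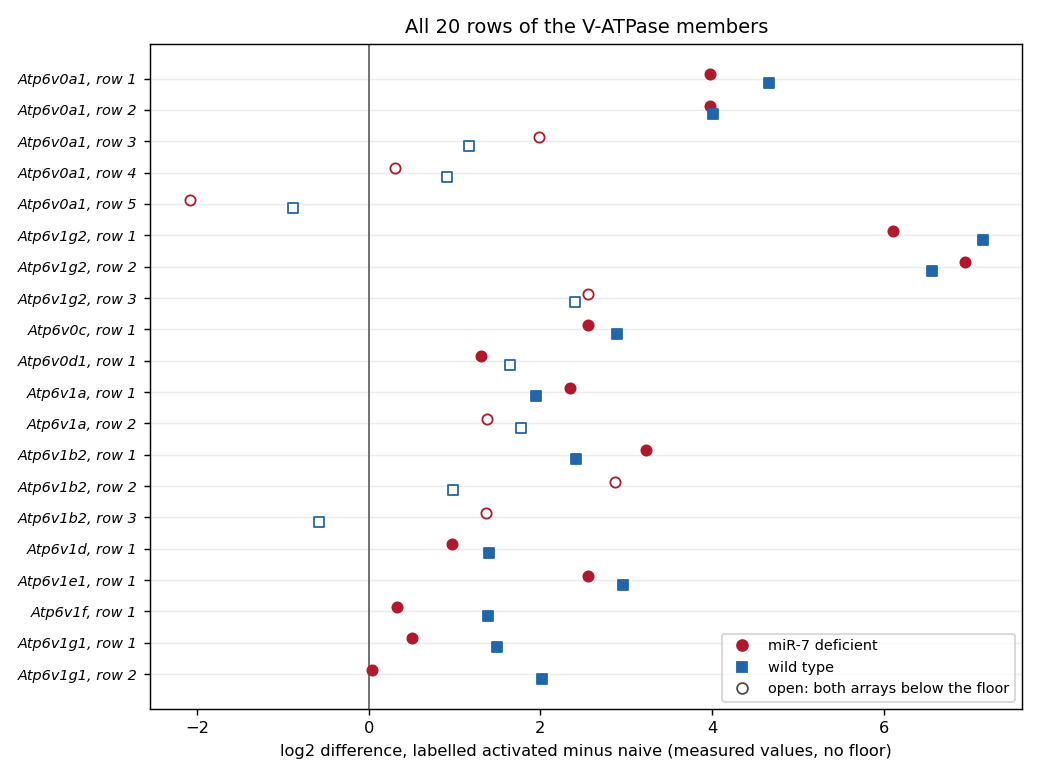
Log2 difference, labelled activated minus naive, of each of the 20 rows of the 10 genes without a floor, for miR-7 deficient and wild-type arrays, with open points where both arrays were below the floor. The 2 leading rows of Atp6v1g2 and of Atp6v0a1 stand highest, and the row of Atp6v0a1 from a mammary line lies below 0.

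Counted together, 5 of the 10 genes were 2-fold or more higher on the array labelled activated in miR-7 deficient samples (Atp6v0a1, Atp6v0c, Atp6v1b2, Atp6v1e1 and Atp6v1g2) and 0 were 2-fold or more lower. Over all genes above the floor, 11.1% were 2-fold or more higher and 14.8% lower in that comparison. In wild-type samples 7 of the 10 were 2-fold or more higher (those 5 and Atp6v1d and Atp6v1f) and 0 lower, against 14.5% and 8.8% of all genes. The median difference of the genes above the floor was log2 1.34 in miR-7 deficient and 1.53 in wild-type samples, with 7 and 8 of the values lower bounds, while the median over all genes above the floor was 0 in both. That 0 falls among values set to 0 for want of a bound, 1442 of 5817 and 833 of 5127. Measured values without a floor put 10 of 10 higher in both genotypes, against 44.9% of all genes in miR-7 deficient and 43.8% in wild-type samples. Of the 20 rows, 19 were higher and 1 lower in miR-7 deficient samples, and 18 were higher and 2 lower in wild-type samples. The median difference of all genes without a floor was log2 -0.13 and -0.17. Centring on a median below 0 raises every difference, so it could not have changed the direction of the 10 subunits. With the floor at the 99th percentile, 3 of 7 genes above it were 2-fold or more higher in wild-type samples, against 9.86% of all genes. With the row of lowest mean, 2 of 6 genes above the floor were in miR-7 deficient samples, against 10.5% of all genes. The genes were chosen with earlier results of these data known, so these shares describe them.

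The neuronal and general isoforms were set side by side. Both neuronal isoforms were below the floor on the naive arrays, so their exact differences and the excess of one isoform over another describe values not above background. With measured values, the 2 neuronal isoforms differed by log2 3.97 and 6.11 in miR-7 deficient samples, above the 8 general isoforms, which ran from 0.33 to 3.23. In wild-type samples the neuronal isoforms differed by 4.66 and 7.15, and the general isoforms by 1.40 to 2.96. With the floor, the neuronal bounds in miR-7 deficient samples were log2 3.57 and 3.16. The largest general value was at least 2.73, for Atp6v1b2, also a bound, so the floored values do not fix the order of these genes. In wild-type samples Atp6v0c, a general isoform, was 7.43-fold higher and Atp6v1g2 at least 7.41-fold, which does not order this pair either. The floored medians were 3.36 for the neuronal and 0.74 for the general isoforms in miR-7 deficient samples, and 3.16 and 1.31 in wild-type samples. Within the G subunit, whose 2 forms take the same place in the stalk, the difference of Atp6v1g2 exceeded that of Atp6v1g1 by log2 5.61 in miR-7 deficient and 5.65 in wild-type samples, and by 2.51 and 0.38 with the row of lowest mean of each gene. The neuronal marker genes above moved in the same direction as the neuronal isoforms, and their part in this contrast was not tested.

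The genotypes were compared next. On the arrays labelled activated, 9 of the 10 genes were higher and 1 was lower in miR-7 deficient than in wild-type samples. Their median was log2 0.20, against 0 over all genes above the floor, where 469 of 5712 had no bound and were set to 0. When each subunit gene's rows were averaged, 6 were higher and 3 lower. Between the same arrays 8 of 10 neuronal genes were higher in miR-7 deficient samples (median log2 0.48, with Slc17a7 17.6-fold higher) and 7 of 8 myelin genes were lower (median -0.32), and their part in the subunit values was not tested. None of the subunits reached 2-fold in either direction, where 2.22% of all genes above the floor were 2-fold or more higher and 2.38% lower, and without a floor 49.4% of all genes were higher. Atp6v1b2 differed by log2 0.59, Atp6v0d1 by at least 0.56 and Atp6v1a by 0.38, and Atp6v1f was the gene that was lower, at -0.21. Where 858 genes had several rows above the floor, those rows differed among themselves by a pooled SD of log2 0.35 in this comparison. That SD is between probe sets and does not measure replicates.

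**Figure D3:**
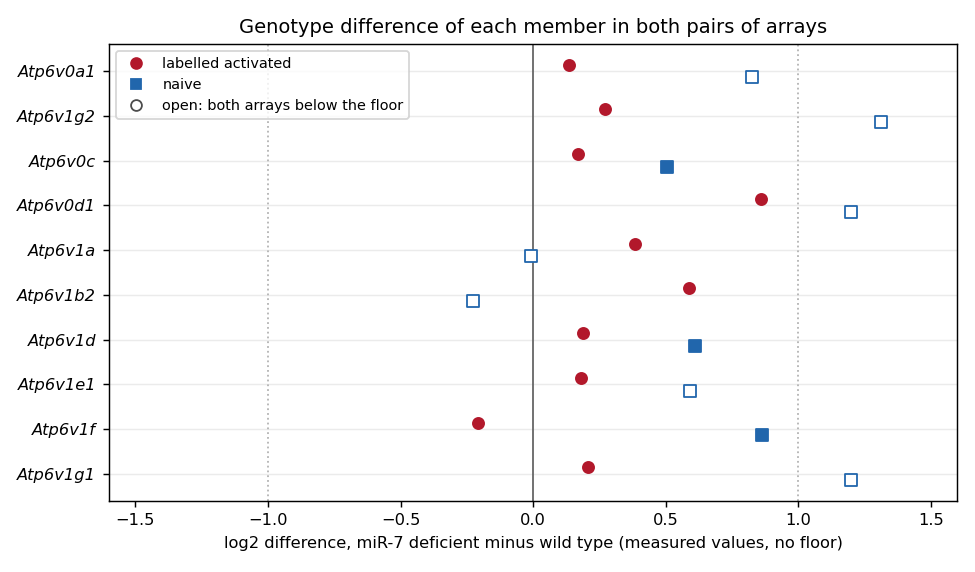
Log2 difference, miR-7 deficient minus wild type, of the 10 genes on the arrays labelled activated and on the naive arrays, with measured values and no floor; open points have both arrays below the floor and dotted lines mark 2-fold. On the arrays labelled activated 9 points lie right of 0, and on the naive arrays 8 points do, of which 3 are filled.

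On the naive arrays, 3 genes could be compared above the floor. Atp6v0c was higher in miR-7 deficient than in wild-type samples by log2 0.50, Atp6v1d by at least 0.28 and Atp6v1f by at least 0.77, and 0 of the 3 reached 2-fold. Over all genes above the floor, 2.02% were 2-fold or more higher and 0.781% lower. Without a floor, 8 were higher and 2 lower, against 52.3% of all genes higher. Atp6v0d1, Atp6v1g1 and Atp6v1g2 were then 2-fold or more higher at values below the floor, against 8.27% of all genes. Only Atp6v0c was above the floor on all 4 arrays, and its genotype difference was smaller on the arrays labelled activated than on the naive arrays by log2 0.33, a gap of -0.06 after the lowess trend was removed and -0.11 after quantile normalization of each pair. With measured values the genotype difference was larger on the arrays labelled activated for Atp6v1a and Atp6v1b2 and smaller for the other 8, with a median of -0.42 against -0.06 over all genes. For 7 of the 10 genes both naive values were below the floor, so those directions rest on values not above background. The share of all genes with a smaller difference was not counted.

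The other measured V-ATPase genes numbered 15. Higher by 2-fold or more on the array labelled activated were 4 in miR-7 deficient samples and 3 in wild-type samples, with 0 lower in both, where 7 and 8 of the 15 were above the floor. Over all genes, 11.1% and 14.5% were higher by that much and 14.8% and 8.8% lower. Without a floor, the 15 split into 7 higher and 8 lower in miR-7 deficient samples, and 8 higher and 7 lower in wild-type samples. Atp6v1c1, a stator subunit of the V1 sector, read 4393 and 4223 units on the arrays labelled activated of miR-7 deficient and wild-type cells and 837 and 480 units on the naive arrays, a difference of at least log2 2.15 and 2.10. The accessory proteins Atp6ap1 and Atp6ap2 differed by log2 1.13 and 1.61 in miR-7 deficient samples, and in wild-type samples Atp6ap1 by at least 1.40, while the bound of Atp6ap2 fell just short of 2-fold and its measured values differed by 1.77. Atp6v0e2, a brain-enriched form of the small e subunit, differed by at least log2 1.29 and 0.72. Atp6v0e, its general form, was lower by log2 -0.66 in miR-7 deficient samples, with 694 units on the array labelled activated against 1100.3 units on the naive array. In wild-type samples it read 973 units on the array labelled activated and 585 units on the naive array, which leaves no bound with the floors and log2 0.73 with measured values. Atp6v0b, a second proteolipid of the ring, read 2049.8 and 3210.02 units on the arrays labelled activated and 1248 and 791 units on the naive arrays, and differed by log2 0.72 in miR-7 deficient and at least 1.71 in wild-type samples.

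Atp6v1h, the regulatory subunit H, was above the floor on the arrays labelled activated alone, at 826 and 742 units, against 248 and 178 units on the naive arrays. Tcirg1, which encodes the a3 form known from osteoclasts, was above the floor on 1 array labelled activated at 727 units, and read 592, 429.7 and 938 units on the miR-7 deficient array labelled activated, the miR-7 deficient naive array and the wild-type naive array. The isoforms Atp6v0a2, Atp6v0a4, Atp6v0d2, Atp6v1b1, Atp6v1c2, Atp6v1e2 and Atp6v1g3 were below the floor on all arrays. Set against these, the measured differences of the partner genes were larger: Atp6v0a1 exceeded Atp6v0a2 by log2 4.49 in miR-7 deficient and 5.34 in wild-type samples, and Atp6v1b2 exceeded Atp6v1b1 by 4.49 and 1.80. Values below the floor give these gaps no lower limit.

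**Figure D4:**
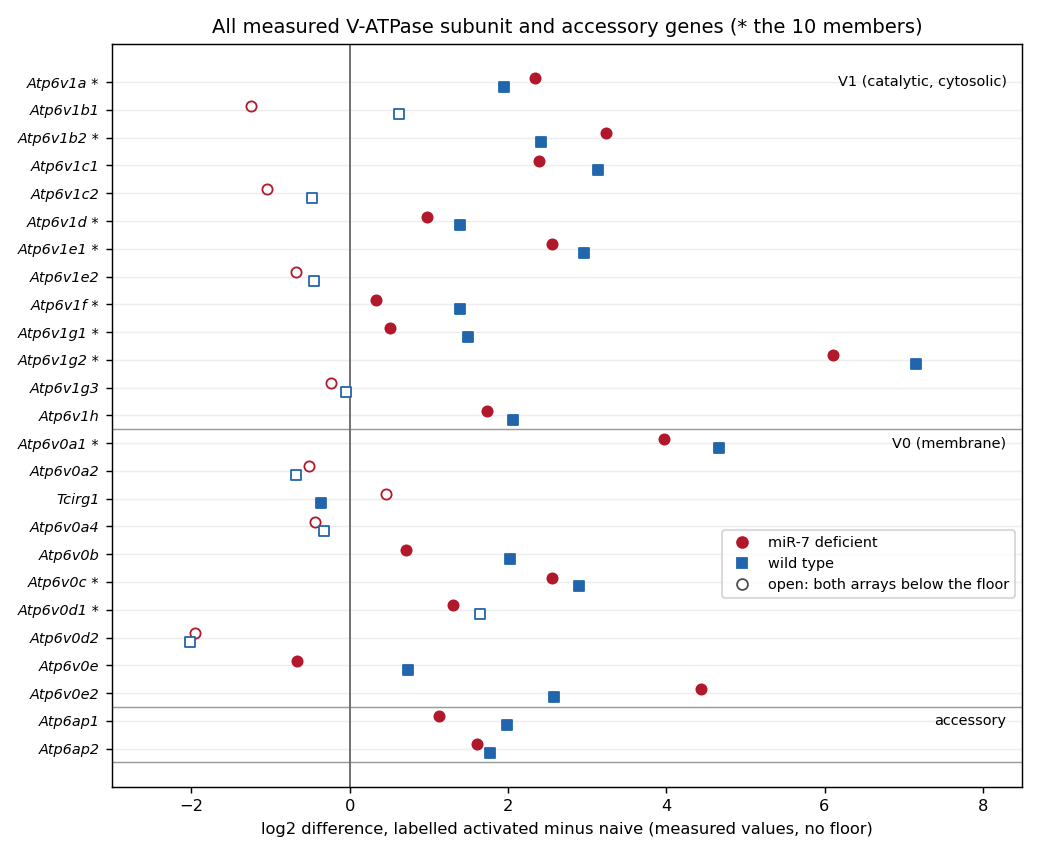
Log2 difference, labelled activated minus naive, of all measured V-ATPase genes without a floor, for miR-7 deficient and wild-type arrays, with open symbols where both arrays were below the floor and asterisks on the 10 genes described. Atp6v1g2 lies furthest right in both genotypes, followed by Atp6v0e2 in miR-7 deficient and Atp6v0a1 in wild-type samples. The isoforms below the floor on all arrays lie left of 0, except Atp6v1b1 in wild-type samples (log2 0.62).

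Among the genes whose profile over the 4 arrays came closest to that of Atp6v1g2, out of 3373 genes above the floor on both arrays labelled activated, were Eef1a2, Dnm1, Scg3 and Gng3. Their root mean square difference in centred log2 intensity ran from 0.25 for Eef1a2 to 0.36 for Gng3. The genes closest to Atp6v1g1 were Snu13, Psmd2, Med10, Hsph1 and Tug1, at 0.02 to 0.08. Those closest to Atp6v0c were Sema6a, Coa3, Cadm3, Cox8a and Bex4, at 0.05 to 0.08. The naive values of Atp6v1g2 and of several of these genes lie below the floor, so part of each profile is not above background. With 4 arrays, and 2 of each label, such closeness is a description of these samples.

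Assembly and lysosomal genes were read beside the subunits. Of 10 measured assembly factors and regulators, 4 were above the floor in miR-7 deficient and 3 in wild-type samples. Among them 2 and 1 were 2-fold or more higher and 0 lower, against 11.1% and 14.5% of all genes higher and 14.8% and 8.8% lower. Without a floor, 9 were higher and 1 lower in miR-7 deficient samples, and 5 higher and 5 lower in wild-type samples. Rnasek, a V-ATPase-associated membrane protein, differed by log2 2.85 in miR-7 deficient and at least 3.10 in wild-type samples, and Rogdi by at least 1.05 and 0.63. Of 25 measured lysosomal membrane proteins and hydrolases, 13 were above the floor in miR-7 deficient and 10 in wild-type samples. Of these, 3 were 2-fold or more higher and 0 lower in miR-7 deficient samples, and 2 were higher and 1 lower in wild-type samples, with medians of log2 0.04 and -0.02, beside the shares of all genes given above. Without a floor, 18 and 15 of the 25 were higher, against 44.9% and 43.8% of all genes. By 2-fold or more 6 and 9 of the 25 were higher, against 16.6% and 18.4%, and the medians were 0.50 and 0.51. Ctsd, an aspartic protease, was higher by log2 1.80 and 1.74, and Gaa, the acid alpha-glucosidase, by at least 1.13 and 1.42. Ctsb, a cysteine protease, was lower by log2 -0.99 and -1.46, and Npc2, a cholesterol carrier, by -0.92 and -0.49. The lysosomal list held genes in both directions with and without the floor.

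The promoters were searched for the letters of the CLEAR motif, the element bound by TFEB and related factors at lysosomal genes. The inner motif TCACGTGA and its core CACGTG read the same on both strands, and every TCACGTGA also holds the core. RefSeq windows of 300 bases (250 before to 50 after a start, GRCm38.p6) were given for 8 of the 10 genes, and 2 of the 8 (25%) held the core, both as TCACGTGA. Over all genes with a window, 8.09% held the core and 1.12% TCACGTGA. The 2 matches are shown with the motif in capitals, and the windows at both starts of Atp6v1g2, the gene with the largest measured difference, are shown beside them and hold no match. Each is a stretch of 120 bases, 5′ to 3′ on the strand of the gene, at chr16:44139330-44139449 on the minus strand for Atp6v1a, chr8:105566055-105566174 on the minus strand for Atp6v0d1, and chr17:35234890-35235009 and chr17:35236476-35236595 on the plus strand for Atp6v1g2.
Atp6v1a: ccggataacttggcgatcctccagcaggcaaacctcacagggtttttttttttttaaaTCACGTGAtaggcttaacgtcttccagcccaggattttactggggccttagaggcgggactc
Atp6v0d1: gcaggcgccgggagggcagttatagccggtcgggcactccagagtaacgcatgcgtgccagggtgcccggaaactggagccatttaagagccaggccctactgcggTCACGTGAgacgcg
Atp6v1g2 first start: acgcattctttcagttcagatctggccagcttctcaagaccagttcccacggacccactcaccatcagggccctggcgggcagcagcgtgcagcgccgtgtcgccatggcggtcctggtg
Atp6v1g2 second start: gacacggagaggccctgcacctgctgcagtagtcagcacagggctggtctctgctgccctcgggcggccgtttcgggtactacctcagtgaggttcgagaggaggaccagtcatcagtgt
Of 21 lysosomal genes with a window, 10 held the core and 5 TCACGTGA. A match is a stretch of letters and shows neither binding nor a cause of a difference.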

How the data were processed

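Each of 4 single-colour NimbleGen arrays measured 1 sample, so the number of arrays limits the precision. The authors normalized the intensities with RMA (version not stated), per the submitters' processing notes. The deposited intensity values are on a linear scale, from 21.7 to 64873, although a file header calls them log2. The fold ratios in the deposited comparison tables were not used: all 283288 intensities there match the value table (relative tolerance 1e-06). Protocol fields of the labels concern a Bacteroides culture and give nothing on these cells. Genes were named from the tables and updated through RefSeq (GRCm38.p6). Values were taken to log2, with the floor at the 95th percentile of 666 receptor rows of 618 genes; differences with no bound were set to 0, and 2-fold was the mark for a count. Alternatives were median centring, a lowess trend (fraction 0.3), no floor, floors at the 99th and 75th percentiles, other rows of a gene and quantile normalization of each pair. The members and lists were chosen with earlier results of these data known. Other lists name their 2 highest and 2 lowest genes by mean activation difference, and 5 genes are named by closeness of profile; a gene that meets these rules is not reported here. Counting was tested on simulated data. Python 3.11.15, numpy 2.4.6, pandas 2.3.3, statsmodels 0.14.6 and matplotlib 3.10.9 were used.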

Additional observations from a re-analysis of the deposited data

Results flagged for a closer look

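Atp6v1f had genotype differences of opposite direction on the 2 pairs of arrays. It was lower in miR-7 deficient than in wild-type samples by log2 -0.21 on the arrays labelled activated, and higher by at least 0.77 on the naive arrays. With 1 array per group the difference between them was not tested. The -0.21 comes from the only row of Atp6v1f and is smaller than the pooled SD between rows of log2 0.35. Among the other V-ATPase genes the same reversal was seen for Atp6v0b (log2 -0.65, and at least 0.34 on the naive arrays). It was also seen for Atp6v0e (log2 -0.49, and at least 0.16 on the naive arrays).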

How the results depend on the processing

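No paired analysis was possible because the labels give no replicate numbers and each group has 1 array. Median centring, the lowess trend and pair quantile normalization left the named subunit differences within the spread between rows; under pair quantile normalization Atp6v1d (0.72) and Atp6v1f (0.98) fell short of 2-fold in wild-type samples, and Atp6v0d1 in miR-7 deficient and Atp6v1a and Atp6v1g1 in wild-type samples had no bound left. On the naive arrays 0 genes were 2-fold or more higher, but 3 of 10 were without a floor, against 8.27% of all genes. With the floor at the 75th percentile 1 of 8 was, against 3.71% of all genes. In miR-7 deficient samples the median activation difference of log2 1.34 became 2.45 without a floor and 2.44 with the floor at the 75th percentile. It became 0.33 with the mean of all rows and 0.65 with the row of lowest mean. With the last pair of settings the count of 5 became 3 of 9 and 2 of 6 genes above the floor. Over all genes those shares were 9.94% and 10.5%. In wild-type samples the median of 1.53 became 2.19 without a floor, 0.73 with the 99th percentile and 2.10 with the 75th. The count of 7 became 3 of 7 genes above the floor with the 99th percentile and 4 of 5 with the row of lowest mean. It became 5 of 7 with the mean of all rows and 5 of 9 with pair quantile normalization. Over all genes the shares were 9.86%, 14.8%, 14.2% and 9.96% in these settings, in that order. The excess of Atp6v1g2 over Atp6v1g1 became 4.93 and 2.51 in miR-7 deficient, and 3.61 and 0.38 in wild-type samples, with the mean of all rows and the row of lowest mean. The floors' own construction sets the size of the bounds; the cause of the other changes was not tested. Scaling moved the share of higher genes among all naive calls: 72.2% as deposited, 62.8% after centring, 34.8% after the lowess trend and 32.6% after pair quantile normalization. That share was 42.9% in the miR-7 deficient activation comparison and 53.3% after the lowess trend, and in the wild-type one it was 62.2%, 75.2% after centring and 37.0% after pair quantile normalization. Values below the floor cannot be ordered.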

Other observations

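Of 14 measured genes of the lysosomal mTORC1 machinery, 8 were above the floor in the activation comparison of miR-7 deficient samples and 6 in that of wild-type samples. Of these, 0 were 2-fold or more higher in either genotype, against 11.1% and 14.5% of all genes, and 4 and 2 of them had no bound. Without a floor, 6 and 7 of the 14 were 2-fold or more higher, against 16.6% and 18.4% of all genes. Lamtor2, a subunit of the Ragulator scaffold, was higher on the arrays labelled activated by at least log2 0.74 in miR-7 deficient and 0.97 in wild-type samples, and Rraga, a Rag GTPase, by at least 0.44 and 0.68. Flcn, a partner of the Rag GTPases, was lower by at least 2.66-fold in miR-7 deficient samples, with 592 units on the array labelled activated, below its floor, against 1609 units on the naive array. In wild-type samples its difference was log2 -0.42. Of 3 measured CLEAR factors, Tfe3 alone was above a floor, with 726 and 1053 units on the arrays labelled activated of miR-7 deficient and wild-type cells, against 969 and 1222 units on the naive arrays.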
